A study of Homo sapiens with 9 samples.

Results

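The genes described here are the 37 genes of the human mitochondrial genome. The set was chosen with earlier results of these data known, and its members by name: every gene whose symbol starts with MT-. They comprise 13 mRNA genes, 2 rRNA genes and 22 tRNA genes among the 60880 gene IDs of the count tables. SNU5, an established human gastric carcinoma line, was grown for 24 h with 1 of 3 agents, each supplying ramucirumab, a therapeutic antibody against VEGFR2, at 8 μg/mL. The NR group received the antibody on PEG-coated gold nanorods (AuNR-PEG-Ab), the SP group received it on PEG-coated gold nanospheres (AuSP-PEG-Ab), and the Ab group received the antibody alone. Poly-A RNA was sequenced in 3 libraries per group, 9 in all, and reads were counted per gene. All groups carry the antibody, and both particle groups carry gold and PEG together. No untreated library, and none with particles that lack antibody, was analysed here. The study calls the libraries of a group biological replicates, while the labels do not say whether each came from its own culture. The p-values measure the spread between these libraries.

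Library depth was 25735410, 13863155 and 15943980 counts in NR, 21682836, 22914759 and 20601906 counts in SP, and 19566064, 26318227 and 21031024 counts in Ab. Of the markers of an epithelial line, the simple-epithelium keratins KRT8 and KRT18 were abundant in every library, with KRT8 at 47765, 26242 and 30817 counts in NR, 44161, 44673 and 40347 in SP, against 13029, 16763 and 13491 in Ab. KRT19, another such keratin, was at 0 or 1 count in each library. CDH1, the epithelial cadherin, was at 150, 79 and 88 counts in NR, 134, 159 and 149 in SP, against 5, 5 and 9 in Ab, so that it was near 0 in the Ab libraries. KDR, which encodes the antibody's target VEGFR2, was at 0 or 1 count in each library. The leukocyte markers PTPRC, CD3E and LYZ were at 0 to 2 counts. DCN, a fibroblast marker, was at 518, 280 and 311 counts in NR, 443, 492 and 449 in SP, against 9, 21 and 7 in Ab. CDH5, an endothelial marker, was at 556, 304 and 317 counts in NR, 424, 491 and 461 in SP, against 69, 98 and 105 in Ab. COL1A2, a collagen gene of fibroblasts, had 37, 0 and 0 counts in NR, 49, 49 and 43 in SP, against 198, 278 and 33 in Ab, and did not pass in either comparison (log2 -3.56 ± 1.31 and -1.81 ± 0.81). CDH1, DCN and CDH5 were thus far higher in both particle groups than in Ab, and not every marker of their cell types was. Whether the particle and Ab libraries hold the same cells was not tested, and each comparison with Ab below carries that limit.

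Human mitochondrial DNA is a small circle that is transcribed from both strands as long precursor RNAs, begun by the polymerase POLRMT with TFAM and TFB2M. The tRNAs lie between most of the other genes, and cutting the precursor at the tRNAs releases the rRNAs and mRNAs. The mRNAs encode membrane subunits of respiratory complexes I, III, IV and V, while complex II and the remaining subunits are encoded in the nucleus. Most mitochondrial mRNAs carry a short poly-A tail, which is what poly-A selection can capture. The MT-ND6 mRNA, the single one read from the other strand, is known to lack such a tail, and the MT-ND5 mRNA is known to run on beyond its reading frame, antisense to MT-ND6.

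None of the 37 genes has an intron, and they fill the circle with hardly a gap outside the control region, a stretch of 1122 bases that holds the promoters. The sequences below are from the mitochondrial contig of GRCh37, 16569 bases long, with positions from GENCODE 44. Poly-A tails also finish the reading frames: 6 of the 13 mRNA genes stop inside their last codon, and the tail supplies the missing bases of a stop codon. The last 24 bases of those 6 genes are shown for that reason, with the bases of the unfinished codon in capitals, and that of MT-CO2, which ends in a whole stop codon, for contrast.
MT-ND1: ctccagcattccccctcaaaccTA
MT-ND2: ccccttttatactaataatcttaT
MT-CO3: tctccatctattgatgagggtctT
MT-ND3: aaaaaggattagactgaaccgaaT
MT-ND4: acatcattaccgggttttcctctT
MT-CYB: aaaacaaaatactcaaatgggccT
MT-CO2: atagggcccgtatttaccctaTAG

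Some reading frames overlap, and a read inside an overlap cannot be given to 1 gene. MT-ATP8 and MT-ATP6 share 46 bases, and MT-ND4L and MT-ND4 share 7, shown in capitals within their surroundings on the plus strand at chrM:8512-8587 and chrM:10745-10781. MT-ND5 and MT-ND6 meet end to end on opposite strands, and the 60 bases across their border at chrM:14119-14178 are shown with the MT-ND6 side in capitals. The kit was not a directional one, so reads from the 2 strands there cannot be told apart.
MT-ATP8 and MT-ATP6: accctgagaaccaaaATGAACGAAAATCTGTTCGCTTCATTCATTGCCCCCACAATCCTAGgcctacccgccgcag
MT-ND4L and MT-ND4: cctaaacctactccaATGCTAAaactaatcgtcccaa
MT-ND5 and MT-ND6: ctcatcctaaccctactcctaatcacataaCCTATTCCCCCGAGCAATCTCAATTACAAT

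Of the 22 tRNA genes, 20 had 0 counts in all 9 libraries. A count of 0 allows up to 3 counts, or 0.114 to 0.216 CPM (counts per 1000000 counts of the library) depending on the library. The 2 genes with any count were MT-TF and MT-TP, the tRNAs for phenylalanine and proline, which are the 2 genes that border the control region. MT-TF had 0 to 3 counts per library, at or under that floor, whereas MT-TP had 887 to 2262. Both are shown in the sense of the tRNA. MT-TT, the tRNA for threonine, lies 2 bases from MT-TP on its other side, had no count, and is shown for contrast.
MT-TF, chrM:577-647, plus strand: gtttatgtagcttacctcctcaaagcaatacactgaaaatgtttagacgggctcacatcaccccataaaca
MT-TP, chrM:15956-16023, minus strand: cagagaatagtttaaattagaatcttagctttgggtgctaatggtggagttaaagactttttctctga
MT-TT, chrM:15888-15953, plus strand: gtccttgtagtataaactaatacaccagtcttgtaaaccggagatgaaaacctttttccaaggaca

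Mitochondrial transcripts took a larger share of the library in both particle groups than with antibody alone. The 37 genes held 4.59% (4.58 to 4.60%), 4.36% (4.35 to 4.37%), 4.41% (4.40 to 4.42%) of all counts in NR replicates 1, 2 and 3. The ranges in brackets are exact 95% Clopper-Pearson intervals and cover counting error only. The SP libraries held 4.66% (4.65 to 4.67%), 4.47% (4.46 to 4.48%), 4.40% (4.39 to 4.41%). The Ab libraries held 3.71% (3.70 to 3.72%), 3.41% (3.40 to 3.42%), 3.54% (3.54 to 3.55%). The lowest particle library lay above the highest Ab library, and the NR and SP libraries overlapped. Group means were 4.45% ± 0.120 for NR, 4.51% ± 0.135 for SP and 3.56% ± 0.150 for Ab (SD, n = 3 each). The NR mean was 1.25-fold the Ab mean, a difference of 0.898 percentage points, and the SP mean was 1.27-fold, a difference of 0.953 points. Both gave p = 0.1, the smallest value that an exact two-sided permutation test of 3 against 3 libraries can give. NR and SP differed by -0.0552 percentage points (exact p = 0.6). In bulk RNA, fewer cells of a type and less RNA per cell cannot be told apart, and a larger share of one RNA cannot be told apart from less of the others.

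**Figure D1:**
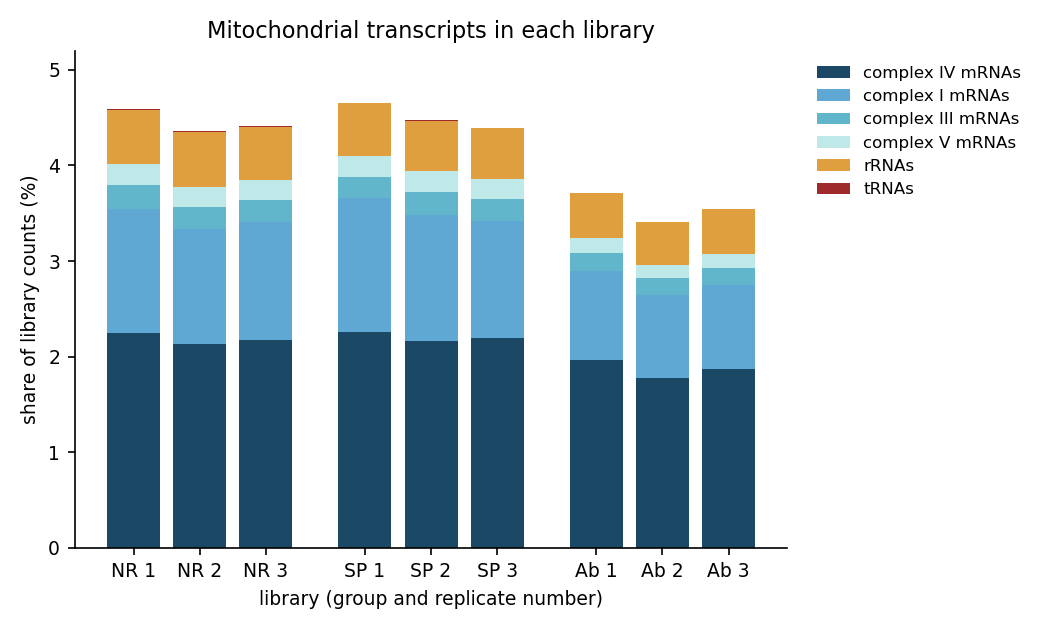
Share of library counts (%) from the mitochondrial genes in each of the 9 libraries, stacked by respiratory complex, rRNA and tRNA. The 6 particle libraries sit between 4.36% and 4.66%, above the 3 Ab libraries at 3.41% to 3.71%.

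The share was made up unevenly. The 3 complex IV mRNAs held 2.18% ± 0.0604 of library counts in the NR group, 2.20% ± 0.0485 in the SP group and 1.87% ± 0.0938 in the Ab group (SD, n = 3 each). For the 7 complex I mRNAs the means were 1.25% ± 0.0458 with nanorods, 1.32% ± 0.0865 with nanospheres and 0.894% ± 0.0356 with antibody alone. Against Ab, the share of complex I mRNAs was 1.40-fold in NR and 1.47-fold in SP, while that of complex IV mRNAs was 1.17-fold and 1.18-fold. MT-CYB of complex III stood at 1.34-fold and 1.29-fold, and the 2 mRNAs of complex V at 1.40-fold and 1.43-fold. The 2 rRNAs held 0.562% ± 0.0123 with nanorods, 0.534% ± 0.0175 with nanospheres and 0.457% ± 0.0116 with antibody alone. rRNA is the most abundant RNA of the organelle, and these values are what poly-A selection left of it. For each of these classes the particle libraries lay above the Ab libraries without overlap, again at exact p = 0.1.

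Levels of different genes were compared as CPM per kb of gene, over the whole length of each gene. Whether reads that cross a gene border were left uncounted was not tested, and values per kb carry that limit, above all for short genes. In Ab, MT-CO1 stood highest at 6641 ± 393 (SD, n = 3). MT-CO3 followed at 6231 ± 257, with libraries that overlapped those of MT-CO1, and MT-CO2 at 5237 ± 198, below both. These 3 genes encode the catalytic core of cytochrome c oxidase. In the particle groups the order at the top was different. MT-CO2 came first, at 8265 ± 447 CPM per kb in NR and 7983 ± 267 in SP. MT-CO1 came next, at 7076 ± 59.4 and 7331 ± 231, with no overlap between the libraries of the 2 genes in either group. MT-ND4, of complex I, held rank 4 in NR and SP and rank 8 in Ab, but its libraries overlapped with those of MT-ATP6 just below it in NR and with those of MT-ND1 just above it in Ab. From MT-TP down to MT-RNR1 the neighbours in NR overlapped, as did those from MT-TP down to MT-ND4L in Ab.

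MT-ATP8 was lowest of the 13 mRNAs in each group, at 67.6 ± 6.09 CPM per kb in NR, 64.4 ± 23.6 in SP and 56.8 ± 5.04 in Ab. Its partner MT-ATP6, known to be translated from the same mRNA, stood at 3106 ± 121 in NR, 3167 ± 81.2 in SP and 2216 ± 100.1 in Ab. Whether reads spanning both frames were left uncounted was not tested. MT-ND6 was the next lowest mRNA, at 780.2 ± 48.7 CPM per kb with nanorods, 802 ± 53.2 with nanospheres and 338 ± 16.3 with antibody alone.

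Each gene was then compared between groups in an edgeR quasi-likelihood fit over all genes, with p-values adjusted over all genes tested and calls at an adjusted p of at most 0.05. Of the 37 genes, 16 passed the filter on low counts in each comparison and 21 tRNA genes did not. In NR against Ab, 11 of the 16 rose, 0 fell and 5 did not pass, with a median log2 fold change of 0.55. Among all 15009 genes tested there, 36.4% were called higher and 36.4% lower, and the median log2 fold change was -0.01. In SP against Ab, 12 of the 16 rose, 0 fell and 4 did not pass, with a median of 0.51. Among all 15068 genes tested there, 36.4% were called higher and 36.6% lower, and the median was -0.01. No mitochondrial gene was lower in either comparison at an unadjusted p under 0.05, and DESeq2 also called 0 lower. Rises of at least 2-fold were seen for 2 of the 16, MT-ND5 and MT-ND6, in each comparison, where 12.4% of all genes rose that far in NR and 12.6% in SP. The 3 Ab libraries serve both comparisons, so the values are given side by side and are not independent.

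**Figure D2:**
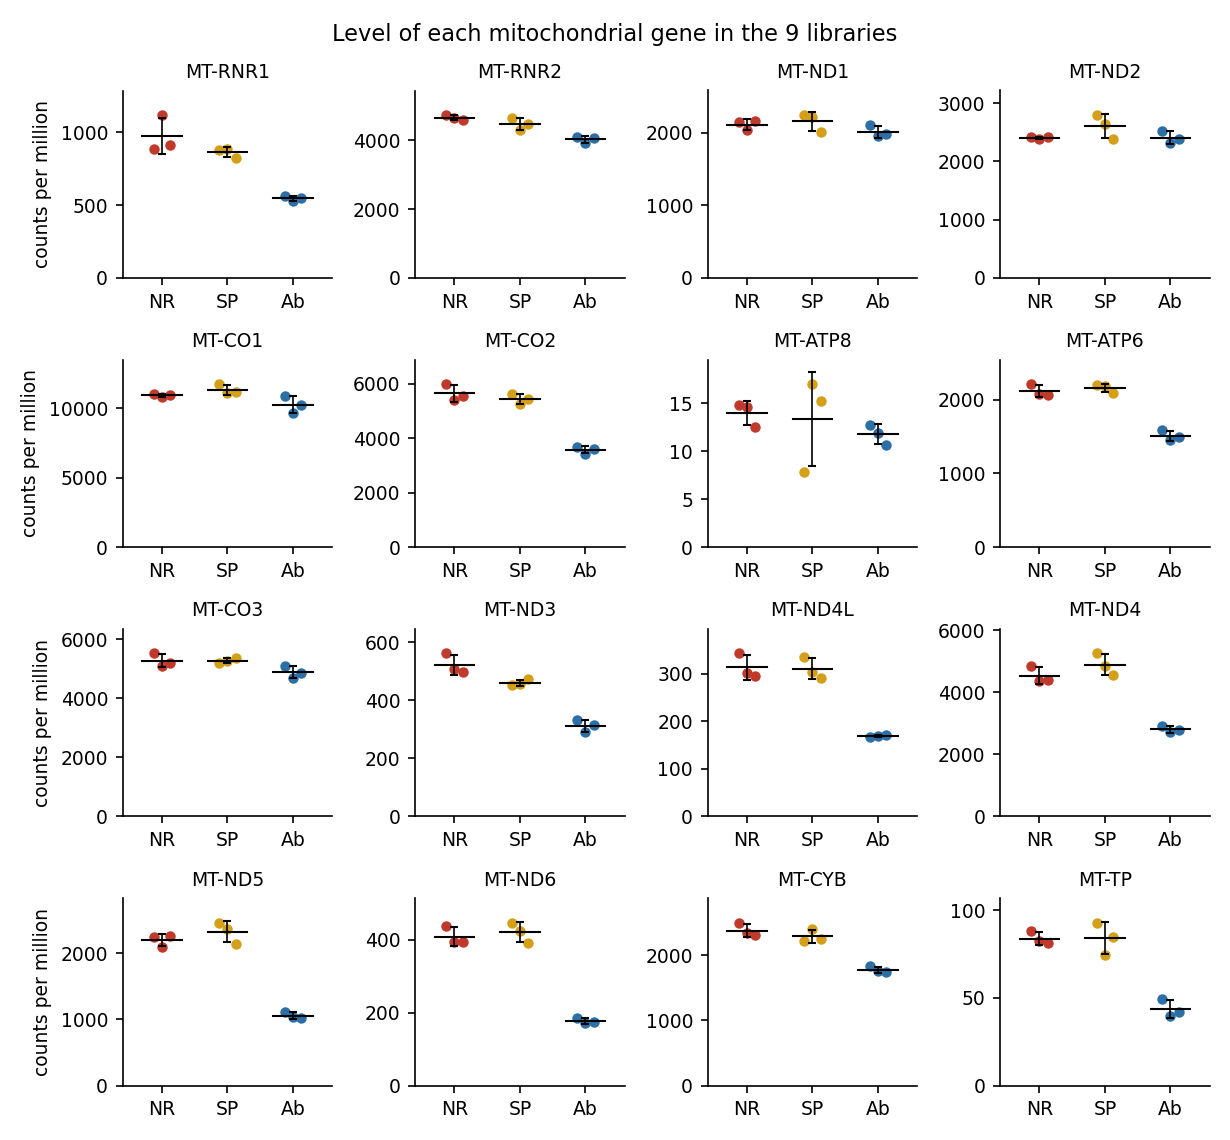
Level in CPM (vertical axes, each starting at 0) of each of the 16 tested mitochondrial genes in the NR, SP and Ab libraries, with a point for each library, a horizontal line at the group mean and error bars of SD (n = 3). MT-ND5, MT-ND6, MT-ND4 and MT-ND4L separate the particle groups from Ab, whereas MT-ND1 and MT-ND2 overlap.

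Among the 7 mRNAs of complex I, the NADH dehydrogenase that feeds electrons into the respiratory chain, 5 rose in each comparison and 2 did not pass. Of all genes tested, 36.4% rose in each comparison. MT-ND5 (chrM:12337-14148), one of the proton-pumping subunits, was at 2235, 2091 and 2250.0 CPM in NR, 2457, 2360.1 and 2142 CPM in SP and 1109, 1042 and 1015 CPM in Ab. All 6 particle libraries stood well above all 3 Ab libraries. The rise was 2.04-fold in NR (log2 fold change 1.03 ± 0.04, edgeR adjusted p = 1.98e-18, SE) and 2.16-fold in SP (log2 fold change 1.11 ± 0.05, edgeR adjusted p = 1.35e-16). MT-ND6 (chrM:14149-14673), whose gene lies on the opposite strand, was at 439, 395 and 395 CPM in NR, 447, 424 and 392 CPM in SP and 187, 171 and 174 CPM in Ab. Both particle groups were again separate from Ab. MT-ND6 rose 2.27-fold in NR (log2 fold change 1.18 ± 0.05, edgeR adjusted p = 5.68e-18) and 2.33-fold in SP (log2 fold change 1.22 ± 0.05, edgeR adjusted p = 1.01e-17). For each count of MT-ND5 there were 0.196, 0.189 and 0.175 counts of MT-ND6 in the NR libraries, 0.182, 0.180 and 0.183 in the SP libraries and 0.169, 0.164 and 0.171 in the Ab libraries. The ratio was thus slightly higher in every particle library than in every Ab library (exact p = 0.1 for each group against Ab). How many MT-ND6 counts came from RNA of the MT-ND5 strand, whose border is shown above, was not tested.

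MT-ND4 and MT-ND4L (chrM:10760-12137 and chrM:10470-10766), known to be translated from 1 shared mRNA, both rose. MT-ND4 was at 4845, 4364 and 4396 CPM in NR, 5255, 4857 and 4565 CPM in SP and 2917, 2722 and 2777 CPM in Ab, with no overlap between either particle group and Ab. Its rise was 1.59-fold in NR (log2 fold change 0.67 ± 0.04, edgeR adjusted p = 7.99e-14) and 1.71-fold in SP (log2 fold change 0.78 ± 0.05, edgeR adjusted p = 8.89e-14). MT-ND4L was at 343, 303 and 295 CPM in NR, 335, 304 and 292 CPM in SP and 168, 169 and 172 CPM in Ab, and its 3 Ab libraries lay close together, far below the others. It rose 1.82-fold in NR (log2 fold change 0.86 ± 0.05, edgeR adjusted p = 1.30e-14) and 1.80-fold in SP (log2 fold change 0.85 ± 0.05, edgeR adjusted p = 9.56e-15). MT-ND3 (chrM:10059-10404), a small membrane subunit encoded just upstream, was at 562, 507 and 498 CPM in NR, 455, 456 and 473 CPM in SP and 333, 292 and 314 CPM in Ab. Its libraries were highest in NR, lower in SP and lowest in Ab, without overlap between any 2 groups. The rise against Ab was 1.64-fold in NR (log2 fold change 0.71 ± 0.05, edgeR adjusted p = 1.21e-10) and 1.45-fold in SP (log2 fold change 0.53 ± 0.05, edgeR adjusted p = 1.02e-10).

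MT-ND1 and MT-ND2, the 2 complex I genes nearest to the rRNAs (chrM:3307-4262 and chrM:4470-5511), did not pass the test in either comparison. MT-ND1 was at 2140.1, 2032 and 2161 CPM in NR, 2243, 2212 and 2009 CPM in SP and 2103, 1949 and 1981 CPM in Ab, and each particle group overlapped with Ab. Its log2 fold change was 0.04 ± 0.04 in NR (edgeR adjusted p = 0.337) and 0.07 ± 0.05 in SP (adjusted p = 0.153). MT-ND2 was at 2413, 2378 and 2418 CPM in NR, 2798, 2635 and 2392 CPM in SP and 2527, 2322 and 2383 CPM in Ab, also with overlap. For it the log2 fold change was -0.03 ± 0.04 in NR (edgeR adjusted p = 0.491) and 0.09 ± 0.05 in SP (adjusted p = 0.123). Without Ab replicate 1, MT-ND1 passed in both comparisons (log2 0.08 in NR and 0.10 in SP) and MT-ND2 in SP (0.12). Without SP replicate 3 both passed in SP (log2 0.13 and 0.16).

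The ratio of MT-ND5 to MT-ND1 counts within a library needs no scaling between libraries. It was 1.04, 1.03 and 1.04 with nanorods, 1.10, 1.07 and 1.07 with nanospheres and 0.527, 0.535 and 0.512 with antibody alone. mRNAs for subunits of the same complex thus stood in different proportions in the particle and Ab libraries (exact p = 0.1 for each particle group).

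The mRNAs of complex IV, the terminal oxidase, were also uneven. MT-CO2 (chrM:7586-8269), the subunit that takes electrons from cytochrome c, was at 5992, 5398 and 5569 CPM in NR, 5646, 5281 and 5455 CPM in SP and 3695, 3431 and 3620.1 CPM in Ab. Neither particle group overlapped with Ab, and MT-CO2 rose in NR (log2 fold change 0.63 ± 0.04, edgeR adjusted p = 1.60e-13) and in SP (log2 fold change 0.58 ± 0.04, edgeR adjusted p = 2.07e-12). MT-CO1 (chrM:5904-7445), the subunit that reduces oxygen and the most counted mitochondrial gene, was at 10979, 10807 and 10946 CPM in NR, 11713, 11054 and 11146 CPM in SP and 10848, 9637 and 10238 CPM in Ab. Its NR libraries overlapped with Ab and its SP libraries did not. It did not pass in NR (log2 fold change 0.06 ± 0.04, edgeR adjusted p = 0.147) and rose by a small amount in SP (log2 fold change 0.12 ± 0.05, edgeR adjusted p = 0.0252). That SP call was lost without SP replicate 1 (log2 0.08), Ab replicate 2 (0.07) or Ab replicate 3 (0.11), and without Ab replicate 1 the gene passed in NR too (0.11).

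MT-CO3 (chrM:9207-9990), the third core subunit, was at 5519, 5099 and 5191 CPM in NR, 5198, 5259 and 5367 CPM in SP and 5097, 4695 and 4864 CPM in Ab. All particle libraries lay above all Ab libraries by a small margin, and it did not pass in NR (log2 fold change 0.08 ± 0.04, edgeR adjusted p = 0.0677) or in SP (log2 fold change 0.08 ± 0.04, edgeR adjusted p = 0.0766). It passed in both without Ab replicate 1 (log2 0.11 and 0.11). MT-CO2 and MT-CO1 have only tRNA genes between them, yet their count ratio was 0.546, 0.499 and 0.509 with nanorods, 0.482, 0.478 and 0.489 with nanospheres and 0.341, 0.356 and 0.354 with antibody alone. No 2 groups overlapped in this ratio (exact p = 0.1 for each pair).

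MT-CYB (chrM:14747-15887), cytochrome b and the single mitochondrial mRNA of complex III, was at 2496, 2332 and 2301 CPM in NR, 2212, 2403 and 2251 CPM in SP and 1829, 1749.8 and 1744 CPM in Ab. The particle libraries all lay above the Ab libraries, a rise of 1.32-fold in NR (log2 fold change 0.40 ± 0.04, edgeR adjusted p = 9.41e-10) and 1.27-fold in SP (log2 fold change 0.34 ± 0.04, edgeR adjusted p = 5.85e-08). MT-ATP6 (chrM:8527-9207), the proton channel subunit of ATP synthase, was at 2209, 2076 and 2059.5 CPM in NR, 2193, 2183 and 2093 CPM in SP and 1582, 1447 and 1498 CPM in Ab, also without overlap. It rose 1.38-fold in NR (log2 fold change 0.46 ± 0.04, edgeR adjusted p = 8.90e-11) and 1.40-fold in SP (log2 fold change 0.49 ± 0.04, edgeR adjusted p = 7.90e-11). MT-ATP8 (chrM:8366-8572), its partner subunit, had the fewest counts of the mRNAs and was at 14.8, 14.6 and 12.5 CPM in NR, 7.79, 17.0 and 15.2 CPM in SP and 12.7, 11.9 and 10.7 CPM in Ab. SP replicate 1 held the lowest value of all 9 libraries, and NR overlapped with Ab. MT-ATP8 did not pass in NR (log2 fold change 0.23 ± 0.11, edgeR adjusted p = 0.0515) or in SP (log2 fold change 0.16 ± 0.32, edgeR adjusted p = 0.684). It passed in SP without SP replicate 1 (log2 0.42), and in NR without NR replicate 3 (0.30) or Ab replicate 1 (0.28).

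Both rRNAs rose, by unequal amounts. MT-RNR1 (chrM:648-1601), the RNA of the small ribosomal subunit, was at 888, 1119 and 916 CPM in NR, 879, 888 and 822 CPM in SP and 564, 526 and 547 CPM in Ab. NR replicate 2 stood highest, and no particle library reached down to the Ab libraries. The rise was 1.75-fold in NR (log2 fold change 0.81 ± 0.09, edgeR adjusted p = 2.79e-04) and 1.55-fold in SP (log2 fold change 0.64 ± 0.04, edgeR adjusted p = 4.94e-13). MT-RNR2 (chrM:1671-3229), the RNA of the large subunit, was at 4729.7, 4632 and 4589 CPM in NR, 4650.2, 4302 and 4464 CPM in SP and 4097, 3912 and 4059 CPM in Ab. It rose 1.14-fold in NR (log2 fold change 0.18 ± 0.04, edgeR adjusted p = 7.81e-05) and 1.09-fold in SP (log2 fold change 0.13 ± 0.04, edgeR adjusted p = 0.00968). The SP call of MT-RNR2 was lost without SP replicate 1 (log2 0.09) or Ab replicate 2 (0.10). Each mitochondrial ribosome holds 1 of each rRNA. Per kb, the ratio of MT-RNR1 to MT-RNR2 here was 0.307, 0.395 and 0.326 with nanorods, 0.309, 0.337 and 0.301 with nanospheres and 0.225, 0.220 and 0.220 with antibody alone. The particle libraries did not overlap with Ab in this ratio (exact p = 0.1 for each).

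MT-TP, the proline tRNA gene shown above, was at 87.9, 82.2 and 81.1 CPM in NR, 92.8, 74.7 and 84.5 CPM in SP and 49.5, 39.7 and 42.2 CPM in Ab. It rose 1.89-fold in NR (log2 fold change 0.92 ± 0.07, edgeR adjusted p = 2.31e-11) and 1.89-fold in SP (log2 fold change 0.92 ± 0.09, edgeR adjusted p = 4.77e-07), with no overlap with Ab. The gene is 68 bases long, shorter than a 150-base read, and which RNA its counts came from, and from which strand, was not tested.

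**Figure D3:**
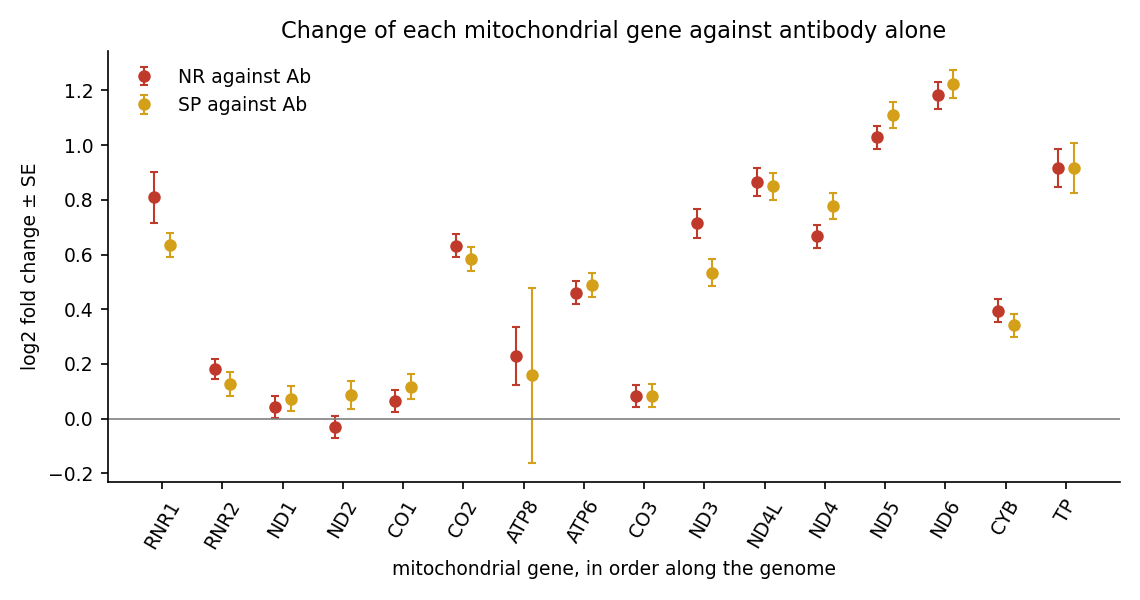
Log2 fold change with SE of the 16 tested mitochondrial genes against Ab, in their order along the genome, for NR and SP. MT-ND2 in NR lies at -0.03 and MT-ND6 in SP at 1.22, and the genes from MT-ND3 to MT-TP all lie above 0.3.

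Along the genome the fold changes against Ab were not even, and neighbours differed. MT-ND1, MT-ND2 and MT-CO1 lay at 0.12 or below on the log2 scale in both comparisons, and MT-CO2 and MT-ATP6 lay between 0.46 and 0.63. MT-CO3, next to MT-ATP6, lay at 0.08 in both. Every tested gene from MT-ND3 onward lay at 0.34 or above. MT-RNR1, the first tested gene along the genome, lay at 0.81 in NR and 0.64 in SP, against any low-to-high order by position. Over the 12 mRNAs on the heavy-strand transcript, Spearman's rho between start position and log2 fold change was 0.74 in NR and 0.67 in SP. Without MT-ATP8, which had few counts, it was 0.72 and 0.65 over 11 genes. The rho with gene length was -0.10 and 0.01, and that with total count was -0.45 and -0.36. These are descriptions across genes, which are not independent: they share libraries, precursor RNAs and reads at their borders.

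Since most of the set rose, each gene was also compared with the sum of the 37 genes, in a fit that used that sum as library size. This fit was added after the data had been seen, and because the sum is fixed, genes above it and genes below it must occur together. In NR against Ab, 9 of 16 genes were higher relative to the sum, 5 were lower and 2 did not pass. On this scale 22.5% of all genes were higher and 51.4% lower. In SP against Ab the counts were also 9, 5 and 2, where 22.1% of all genes were higher and 52.4% lower. MT-ND6 stood 0.88 ± 0.05 (SE) above the sum on the log2 scale in NR (edgeR adjusted p = 1.20e-10) and 0.90 ± 0.05 in SP (adjusted p = 3.19e-10). MT-ND5 stood 0.73 ± 0.05 above it in NR and 0.79 ± 0.05 in SP. The other genes higher in both were MT-RNR1, MT-CO2, MT-ATP6, MT-ND3, MT-ND4L, MT-ND4 and MT-TP. MT-RNR2, MT-ND1, MT-ND2, MT-CO1 and MT-CO3 were lower in both, although none of them had fallen against the library as a whole. For MT-ND2 the value was -0.33 ± 0.04 in NR (edgeR adjusted p = 1.94e-06) and -0.23 ± 0.05 in SP (adjusted p = 4.19e-04). For MT-CO1 it was -0.23 ± 0.04 and -0.20 ± 0.04.

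As a share of the mitochondrial counts, MT-CO1 made up 23.9, 24.8 and 24.8% with nanorods, 25.1, 24.7 and 25.4% with nanospheres and 29.2, 28.2 and 28.9% with antibody alone. It was the largest single part everywhere, and its Ab libraries stood above all others. MT-ND4 made up 10.6, 10.0 and 9.97% with nanorods, 11.3, 10.9 and 10.4% with nanospheres and 7.86, 7.98 and 7.84% with antibody alone, and its Ab libraries stood below all others. MT-ND5 made up 4.87, 4.79 and 5.10% with nanorods, 5.27, 5.28 and 4.87% with nanospheres and 2.99, 3.06 and 2.86% with antibody alone, with the same separation.

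NR and SP differ in the shape of the gold core. Of the 16 genes, 1 rose in NR against SP and 0 fell, with a median log2 fold change of 0.00 and a range of -0.12 to 0.18. Of 14903 genes tested there, 0.262% were called higher and 0.181% lower. The gene was MT-ND3, whose NR libraries lay above its SP libraries without overlap (log2 fold change 0.18 ± 0.04, edgeR adjusted p = 0.0413). This call was lost without NR replicate 1 (log2 0.12), NR replicate 2 (0.21), SP replicate 1 (0.17) or SP replicate 2 (0.17). It was also lost when all 9 libraries shared 1 fit (0.18) and with the replicate number as a block (0.18). MT-ND2 and MT-ND4 reached an unadjusted p under 0.05 and did not pass after adjustment. Their log2 fold changes were -0.12 ± 0.04 (edgeR adjusted p = 0.224) and -0.11 ± 0.05 (adjusted p = 0.374). DESeq2 called 0 lower, and MT-ND2 passed in edgeR without SP replicate 3 (-0.17) and with no filter beyond 1 count (-0.12). A p that misses the threshold does not show that the other genes were at equal levels.

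The nucleus holds many old copies of mitochondrial DNA, and reads from one can be given to the other. The count tables hold 408 such pseudogenes, of which 146 had a count in some library and 20 had a mean of at least 10 counts. All 408 together held 0.0344, 0.0399 and 0.0374% of library counts in the NR libraries, 0.0347, 0.0329 and 0.0315% in the SP libraries and 0.0289, 0.0270 and 0.0271% in the Ab libraries, so that both particle groups lay above Ab. Per 100 mitochondrial counts they held 0.749, 0.915 and 0.848 with nanorods, 0.745, 0.735 and 0.717 with nanospheres and 0.778, 0.790 and 0.764 with antibody alone. On that scale SP lay below Ab, and NR overlapped with Ab. Of 17 copies tested in NR against Ab 10 rose, of 18 tested in SP against Ab 9 rose, and 0 fell in either, by edgeR at an unadjusted p under 0.05 or by DESeq2. Among all genes tested 36.4% rose and 36.4% fell in NR, and 36.4% and 36.6% did in SP. The 20 copies were 71.1% to 99.2% identical to their parent gene over the aligned bases, with a median of 94.3%, and 3 shared an unbroken identical run at least as long as a 150-base read. Stretches of 60 bases from the middle of 3 alignments show how far the copies differ there, at 0, 2 and 4 bases in this order, with bases that differ in capitals. MTCO1P12, the first copy shown, is 1 of the 3 that share an identical run of read length.
MT-CO1, chrM:6690-6749, plus strand: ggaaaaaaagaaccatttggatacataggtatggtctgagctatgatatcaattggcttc
MTCO1P12, chr1:567241-567300, plus strand: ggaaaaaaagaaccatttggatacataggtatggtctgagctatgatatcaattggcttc
MT-ND4, chrM:11448-11507, plus strand: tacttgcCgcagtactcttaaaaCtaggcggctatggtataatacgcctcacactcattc
MTND4P12, chr5:134262979-134263038, minus strand: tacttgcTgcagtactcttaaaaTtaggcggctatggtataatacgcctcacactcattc
MT-CO1, chrM:6255-6314, plus strand: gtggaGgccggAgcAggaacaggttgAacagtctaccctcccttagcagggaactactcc
MTCO1P2, chr14:32953596-32953655, minus strand: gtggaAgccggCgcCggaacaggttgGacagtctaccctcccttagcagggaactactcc

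MTND4P12 (chr5:134262350-134263726, 95.8% identical to MT-ND4) was at 931, 590 and 640 counts in NR, 930, 809 and 635 in SP, against 403, 541 and 373 in Ab. It rose in both comparisons (log2 0.98 ± 0.08 in NR and 0.86 ± 0.10 in SP, edgeR adjusted p = 8.65e-12 and 1.37e-06), as MT-ND4 did. It lies in a block of copies on chromosome 5 that keeps the order of the mitochondrial genes. Next to it, MTND5P11 (chr5:134260338-134262149) had 95, 45 and 70 counts in NR, 77, 78 and 73 in SP, against 42, 33 and 34 in Ab and rose as MT-ND5 did (log2 1.17 ± 0.22 and 1.06 ± 0.22). MTND6P4 (chr5:134259813-134260334) had 34, 17 and 23 counts in NR, 32, 37 and 27 in SP, against 5, 14 and 6 in Ab and rose as MT-ND6 did (log2 1.80 ± 0.36 and 1.95 ± 0.36).

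Another block, on chromosome 1, holds MTND2P28, MTCO1P12, MTATP6P1 and MTCO3P12. MTCO1P12 (chr1:566454-567996, 98.6% identical to MT-CO1) was at 3253, 1888 and 2120 counts in NR, 2981, 2941 and 2444 in SP, against 2208, 2775 and 2292 in Ab and rose by 0.25 ± 0.05 in NR and 0.21 ± 0.06 in SP on the log2 scale. MTCO3P12 (chr1:569756-570302) rose by 0.37 ± 0.06 in NR. Its rise in SP, 0.14 ± 0.06, was lost without SP replicate 2 (0.11) or 3 (0.12), or Ab replicate 2 (0.10) or 3 (0.15), or with at least 10 counts required in every library (0.12). MTATP6P1 (chr1:569076-569756) rose in NR (log2 0.53 ± 0.16) and did not pass in SP (0.25 ± 0.18), except without SP replicate 3 (0.41). MTND2P28 (chr1:565020-566063) did not pass in either (log2 0.12 ± 0.11 in NR and -0.01 ± 0.08 in SP), except in NR without NR replicate 1 (0.25). MTCO1P2 (chr14:32953304-32954006), on chromosome 14, did not pass either (log2 -0.01 ± 0.08 and 0.07 ± 0.08). Whether these counts are transcripts of the copies or misplaced mitochondrial reads was not tested.

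Of the nuclear genes that make and keep mitochondrial RNA, more fell than rose. Of 9 genes for mitochondrial transcription, 7 fell and 1 rose in NR against Ab (median log2 fold change -0.29), and 5 fell and 1 rose in SP (median -0.22), where 36.4% of all genes tested rose and 36.4% fell in NR and 36.4% and 36.6% did in SP. POLRMT, the mitochondrial RNA polymerase, was at 127, 126 and 131 CPM in NR, 122, 128 and 127 CPM in SP and 190.4, 177 and 176 CPM in Ab. It fell in NR (log2 fold change -0.53 ± 0.05, edgeR adjusted p = 6.33e-11) and in SP (log2 fold change -0.55 ± 0.05, edgeR adjusted p = 9.07e-11). TFB2M, which helps the polymerase to open the promoter, fell by similar amounts (log2 -0.38 ± 0.05 in NR and -0.39 ± 0.06 in SP). The 1 gene that rose was TFB1M, the methylase of the small-subunit rRNA (log2 0.46 ± 0.13 and 0.58 ± 0.14). TFAM, which bends promoter DNA and packages the genome, was at 129, 126 and 124 CPM in NR, 116, 133 and 128 CPM in SP and 123, 144 and 139 CPM in Ab. Its fall was small in NR (log2 fold change -0.13 ± 0.05, edgeR adjusted p = 0.0317) and in SP (log2 fold change -0.13 ± 0.06, edgeR adjusted p = 0.0446). Of 14 alternatives, 7 lost the call in NR and 6 in SP. Both calls were lost under DESeq2 (log2 -0.12 in NR and -0.13 in SP), with library totals alone (-0.10 and -0.11), without Ab replicate 2 (-0.09 and -0.09) and without Ab replicate 3 (-0.11 and -0.12). The NR call was also lost without NR replicate 2 (-0.13) or 3 (-0.12) or with the replicate number as a block (-0.12), and the SP call without SP replicate 1 (-0.09) or 3 (-0.14).

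Of 32 genes for processing and stability of mitochondrial RNA, 19 fell and 4 rose in NR against Ab (median -0.20), and 20 fell and 4 rose in SP (median -0.21), where 36.4% of all genes tested rose and 36.4% fell in NR and 36.4% and 36.6% did in SP. LRPPRC and SLIRP form the complex that binds and stabilises the mitochondrial mRNAs. LRPPRC was at 440.4, 447 and 445 CPM in NR, 455, 466 and 447 CPM in SP and 404, 470.1 and 471 CPM in Ab. Its groups overlapped, and it did not pass in NR (log2 fold change -0.04 ± 0.05, edgeR adjusted p = 0.456) or in SP (log2 fold change -0.00 ± 0.05, edgeR adjusted p = 0.968), except in NR without Ab replicate 1 (log2 -0.11). SLIRP fell in NR (log2 fold change -0.20 ± 0.07, edgeR adjusted p = 0.00928) and in SP (log2 fold change -0.21 ± 0.07, edgeR adjusted p = 0.00798). These calls were lost without Ab replicate 3 (log2 -0.15 and -0.16) and, in SP, without SP replicate 2 (-0.18). FASTK, which protects the MT-ND6 mRNA, was at 82.5, 78.2 and 75.6 CPM in NR, 83.0, 78.4 and 83.9 CPM in SP and 143, 133 and 133 CPM in Ab. It fell in NR (log2 fold change -0.82 ± 0.05, edgeR adjusted p = 3.69e-14) and in SP (log2 fold change -0.77 ± 0.05, edgeR adjusted p = 5.18e-13). PUS1, a pseudouridine synthase of tRNAs, fell as well (log2 -0.86 ± 0.05 and -0.90 ± 0.06). HSD17B10, a subunit of the RNase P that cuts the precursor at tRNA starts, rose (log2 0.69 ± 0.05 and 0.66 ± 0.05), as did ELAC2, which cuts at tRNA ends (0.51 ± 0.05 and 0.51 ± 0.06). The remaining genes that rose were FASTKD1 and MRM1.

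Among 16 genes that copy and maintain mitochondrial DNA, 9 rose and 4 fell in NR against Ab (median 0.20), and 8 rose and 4 fell in SP (median 0.20), where 36.4% of all genes tested rose and 36.4% fell in NR and 36.4% and 36.6% did in SP. MPV17, an inner-membrane protein needed to keep the DNA, was at 39.4, 37.8 and 34.7 CPM in NR, 41.7, 39.5 and 41.4 CPM in SP and 13.6, 12.8 and 12.4 CPM in Ab. It rose 2.85-fold in NR (log2 fold change 1.51 ± 0.08, edgeR adjusted p = 7.78e-16) and 3.11-fold in SP (log2 fold change 1.64 ± 0.08, edgeR adjusted p = 9.52e-17). LIG3, the DNA ligase, also rose (log2 0.78 ± 0.07 and 0.87 ± 0.07). The 4 that fell in each were POLG and POLG2, the subunits of the DNA polymerase, TWNK, the helicase, and TK2, a nucleoside kinase. Of 14 tested regulators of mitochondrial biogenesis, 10 fell and 2 rose in each comparison (medians -0.40 and -0.41), beside the same shares of all genes. GABPB1, a subunit of a transcription factor for respiratory genes, was at 48.8, 46.2 and 49.4 CPM in NR, 47.7, 49.4 and 46.5 CPM in SP and 98.6, 114 and 111 CPM in Ab. It fell in NR (log2 fold change -1.19 ± 0.06, edgeR adjusted p = 1.56e-16) and in SP (log2 fold change -1.20 ± 0.06, edgeR adjusted p = 5.04e-16), as did SIRT1, a deacetylase that acts on PGC-1α (log2 -0.89 ± 0.05 and -0.91 ± 0.05). The 2 that rose were PPARGC1B, which encodes a relative of PGC-1α, and CREB1, a transcription factor.

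The nuclear partners of the mitochondrial mRNAs mostly rose. Of 75 tested nuclear-encoded subunits of complexes I to V, 64 rose and 5 fell in NR against Ab (median log2 fold change 0.77), and 62 rose and 6 fell in SP (median 0.66), where 36.4% of all genes tested rose and 36.4% fell in NR and 36.4% and 36.6% did in SP. Their summed level was 11411, 11093 and 10945 CPM with nanorods, 10929, 10646 and 10974 CPM with nanospheres and 7049, 6811 and 6902 CPM with antibody alone. ATP5F1B, the catalytic subunit of ATP synthase, was the most abundant. NDUFA4, a subunit of complex IV, was at 332, 314 and 309 CPM in NR, 291, 291 and 308 CPM in SP and 123, 122 and 123 CPM in Ab. It rose in NR (log2 fold change 1.35 ± 0.05, edgeR adjusted p = 1.71e-20) and in SP (log2 fold change 1.25 ± 0.05, edgeR adjusted p = 4.67e-19). COX6B1, another complex IV subunit, was at 108, 112 and 106 CPM in NR, 103, 104 and 108 CPM in SP and 35.8, 36.8 and 35.3 CPM in Ab and rose likewise (log2 1.56 ± 0.06 and 1.52 ± 0.06).

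**Figure D4:**
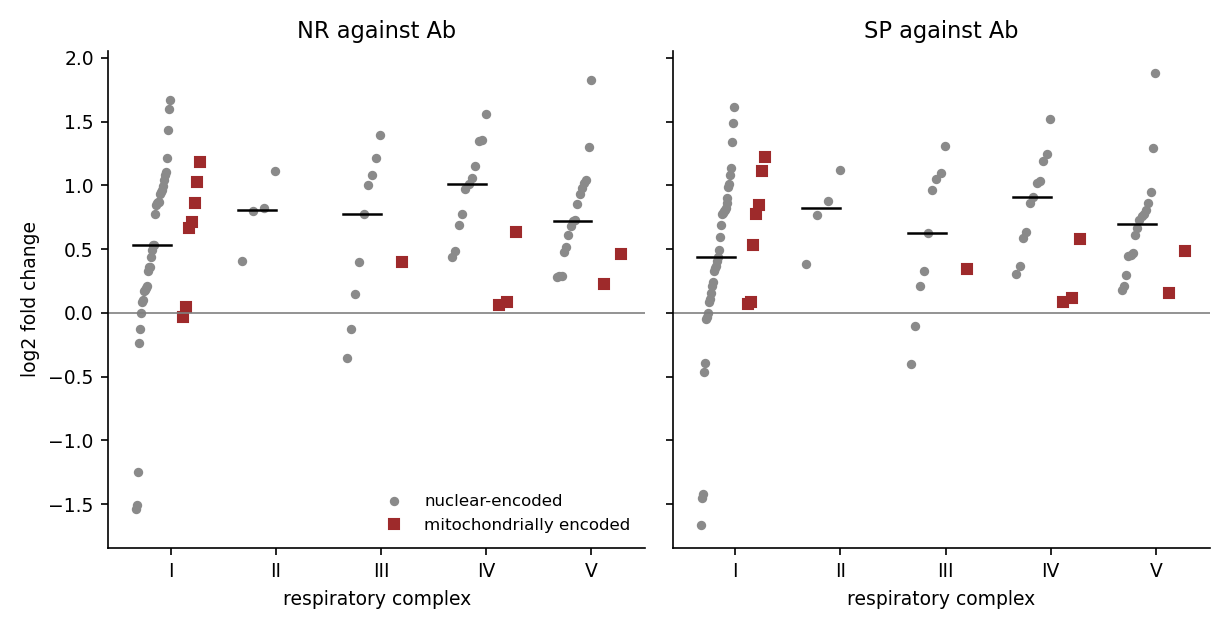
Log2 fold change against Ab (vertical axis) of nuclear-encoded subunits (grey points, black line at their median) and mitochondrially encoded subunits (red squares) of each respiratory complex, for NR and SP, with horizontal spread only to separate the points. The medians of the nuclear subunits lie between 0.43 and 1.01. They lie above every mitochondrial gene of complexes III, IV and V, whereas in complex I the mitochondrial median, 0.71 in NR and 0.78 in SP, lies above the nuclear one, 0.53 and 0.43.

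By complex, all 11 nuclear subunits of complex IV rose in NR and 10 in SP (medians 1.01 and 0.91), beside 1 and 2 of its 3 mitochondrial mRNAs. For this and the other complexes, the shares of all genes tested were 36.4% higher and 36.4% lower in NR. In SP they were 36.4% and 36.6%. All 16 tested subunits of complex V rose in each (medians 0.72 and 0.70), beside 1 of 2 mitochondrial mRNAs. ATP5MC1, ATP5MC2 and ATP5MC3, the 3 genes for the rotor ring, rose by 1.83 ± 0.07, 1.04 ± 0.05 and 1.30 ± 0.05 on the log2 scale in NR. All 4 subunits of complex II, which has no mitochondrially encoded part, rose (medians 0.81 and 0.82), with SDHA at 1.11 ± 0.04 and 1.12 ± 0.04 and SDHC at 0.80 ± 0.04 and 0.88 ± 0.05. In complex III, 7 of 9 rose and 2 fell in each comparison (medians 0.78 and 0.63). UQCRC2 and UQCR10 rose by 1.01 ± 0.05 and 1.40 ± 0.07 in NR. The 2 that fell, named after their values were seen, were UQCR11 (log2 -0.35 ± 0.12 and -0.40 ± 0.12) and UQCRC1 (-0.12 ± 0.04 and -0.10 ± 0.04). The SP call of UQCRC1 was lost in 7 of 14 alternatives: without SP replicate 2 (-0.09) or 3 (-0.10) or Ab replicate 1 (-0.07), under DESeq2 (-0.10), with RLE size factors (-0.10), with library totals alone (-0.07) and with no filter beyond 1 count (-0.09).

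Complex I has the most subunits. In NR, 26 of its 35 tested nuclear subunits rose and 3 fell (median 0.53), and in SP 25 rose and 4 fell (median 0.43). Among all genes tested, 36.4% rose and 36.4% fell in NR, and 36.4% and 36.6% did in SP. NDUFA1, a small membrane subunit, was at 88.6, 91.8 and 81.9 CPM in NR, 73.1, 81.2 and 76.8 CPM in SP and 28.8, 27.4 and 25.0 CPM in Ab. It rose 3.17-fold in NR (log2 fold change 1.67 ± 0.07, edgeR adjusted p = 5.81e-19) and 2.80-fold in SP (log2 fold change 1.49 ± 0.07, edgeR adjusted p = 2.96e-17). NDUFS5, another small subunit, rose by 1.22 ± 0.05 and 1.13 ± 0.05. The subunits that fell, named after their values were seen, had few counts. NDUFA11 had 58, 14 and 26 counts in NR, 54, 32 and 33 in SP, against 106, 120 and 102 in Ab (log2 -1.54 ± 0.21 and -1.45 ± 0.20). NDUFA13 fell by a log2 fold change of -1.25 ± 0.24 in NR and -1.42 ± 0.25 in SP. NDUFV2, an iron-sulphur subunit, had 11, 5 and 5 counts in NR, 7, 10 and 5 in SP, against 22, 28 and 21 in Ab (log2 -1.51 ± 0.37 and -1.66 ± 0.38). In SP, NDUFC2 fell as well (-0.46 ± 0.15), and in NR it did not pass (-0.13 ± 0.15). Whether reads shared with pseudogenes of these subunits were left uncounted was not tested.

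RNAs without a long poly-A tail, which selection should largely miss, were also compared. Of the 5 found, 2 were tested, and how well they measure selection was not tested. RN7SL2, RNA of the signal recognition particle, was at 188, 118 and 95 counts in NR, 172, 154 and 152 in SP, against 151, 215 and 192 in Ab. It did not pass in NR (log2 fold change -0.23 ± 0.14, edgeR adjusted p = 0.131) or in SP (log2 fold change -0.21 ± 0.13, edgeR adjusted p = 0.134), except in NR without NR replicate 2 (log2 -0.34). SNORA73B, a small nucleolar RNA, had 6 to 26 counts and did not pass. The summed level of the 5 such RNAs found was 8.94, 9.67 and 7.46 CPM with nanorods, 8.95, 8.34 and 8.45 CPM with nanospheres and 9.05, 10.1 and 10.4 CPM with antibody alone. The SP libraries all lay below the Ab libraries, and the NR libraries overlapped with both. MALAT1 and NEAT1, which stay in the nucleus, fell in NR (log2 -0.25 ± 0.05 and -0.63 ± 0.06, edgeR adjusted p = 2.14e-04 and 9.90e-10), though MALAT1 did not pass when all 9 libraries shared 1 fit (-0.25). Neither passed in SP (log2 -0.25 ± 0.23 and -0.21 ± 0.25), where SP replicate 1 was highest. Without that library both fell in SP (log2 -0.47 and -0.46).

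Some markers of cell types also differed between the particle groups and Ab. The summed CPM of the 5 epithelial markers was 2197, 2212 and 2235 with nanorods, 2355, 2259 and 2271 with nanospheres and 885, 835 and 844 with antibody alone, led by KRT8. All 4 tested were higher in each particle group, where 36.4% of all genes tested were higher in each comparison with Ab. The 5 fibroblast markers summed to 73.9, 70.8 and 68.6 CPM with nanorods, 74.0, 80.5 and 79.7 with nanospheres and 44.4, 41.5 and 16.7 with antibody alone, led by COL1A1. Of the 5, PDGFRB and DCN were higher in each particle group, beside that same share of all genes. COL1A1, COL1A2 and COL3A1 did not pass. The endothelial markers summed to 23.0, 23.4 and 21.3 CPM with nanorods, 20.8, 22.9 and 24.2 with nanospheres and 3.53, 3.72 and 5.04 with antibody alone, led by CDH5, and both tested genes were higher. The part of these markers in the mitochondrial share was not tested.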

How the data were processed

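Per the labels and the study's methods, poly-A RNA of SNU5 was made into libraries with a kit that does not mark strand and sequenced as paired 150-base reads. Reads were aligned with HISAT2 2.1.0, per the submitters' processing notes, which also name DESeq2 1.16.1. The study names GRCh37, the notes name mm9, and the gene IDs are human. For counting, the methods name a tool called Counts whereas the reporting summary names HTSeq, and the annotation release and strand setting are not given in the sources used here. The deposited values are raw counts per gene ID, 1 table per group. Symbols and positions were taken from GENCODE 44 on GRCh37 for 59858 of 60880 IDs, and the 1022 without a match held up to 0.115% of the counts of a library.

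Groups were compared in pairs, 6 libraries at a time, with edgeR 4.0.16 in R 4.3.3: robust quasi-likelihood test, TMM scaling, filterByExpr with a minimum count of 10 and a minimum total of 15, and Benjamini-Hochberg adjustment over all genes tested. The fits were also run on simulated data, and no outcome of those runs is given here. The SE of an edgeR log2 fold change was taken as its absolute value divided by the square root of the test's F statistic. CPM used library totals. Nuclear copies were aligned to their parent with Biopython 1.88. The mitochondrial genes and the gene lists were chosen with earlier results of these data known. Named by rule were the mRNA and rRNA genes, tRNA genes and nuclear copies with a mean of at least 10 counts (here all copies with at least 100, and MTND5P11 and MTND6P4), POLRMT, TFAM, LRPPRC, SLIRP, and from each list the 2 genes of smallest adjusted p in either comparison with Ab. Where a number of calls was small, the genes behind it, such as TFB1M and ELAC2, were named after their values were seen. Of the list genes, 5 (RN7SL1, RMRP, RPPH1, SCARNA2 and PECAM1) were not matched. The summed level of the leukocyte markers is not reported here. Libraries of a group differed by more than counting noise, with a chi-square per gene of 1.80 to 6.81, and each counted as 1 replicate. The alternatives were DESeq2 1.42.0, other scalings and filters, 1 fit of all 9 libraries, the replicate number as a block, and leaving out each library.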

Additional observations from a re-analysis of the deposited data

How the results depend on the processing

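Against Ab, the number of mitochondrial genes that rose ranged from 11 to 15 in NR and from 10 to 15 in SP over 14 alternatives each, and 0 fell in any. With a library left out, the difference in share ranged from 0.826 to 0.976 points in NR and from 0.878 to 1.03 in SP. The median log2 fold change in NR was 0.62 with no filter beyond 1 count, where MT-TF was tested too. Library totals alone brought MT-ATP8 and MT-CO1 past the threshold in NR, MT-ND1 in SP, and MT-CO3 in both. NR against SP was less stable. Leaving out a library gave 4 to 90 genes higher and 4 to 98 lower, 0 to 1 mitochondrial genes higher, 0 to 1 lower (MT-ND2), and a median of -0.0390 to 0.0207. DESeq2 called 61 genes lower, 1 fit of 9 libraries 15, and no filter beyond 1 count 174 higher and 154 lower, with 1 mitochondrial gene lower (MT-ND2). With the replicate number as a block, 12 mitochondrial genes rose in NR against Ab and 14 in SP against Ab, by adding MT-CO3 in both and MT-ND2 in SP. In NR against SP the block left 0 higher, as did the fit of 9 libraries. Deviations of same-numbered libraries correlated at -0.110 to 0.0409 over 9 pairs. Their own number was highest in 3, all of them SP against Ab (0.0312, 0.0409 and 0.0278). No correlation was above 0.1, and the numbers were not taken to pair libraries.

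Changes near 0 turned sign, and the cause was not tested. In NR, leaving out 1 library gave log2 fold changes of -0.0626 to 0.00245 for MT-ND2, -0.0583 to 0.0607 for MTCO1P2, -0.66 to 0.29 for SNORA73B and -0.22 to 0.00105 for NDUFC2, and MTCO1P2 was 0.0173 under library totals. In SP it gave -0.0640 to 0.42 for MT-ATP8, -0.0883 to 0.0409 for MTND2P28, -0.35 to 0.41 for SNORA73B and -0.0742 to 0.0320 for LRPPRC. Under library totals MTND2P28 was 0.0135 and LRPPRC 0.0233 in SP. LRPPRC was 0.000510 under DESeq2, 0.000513 with RLE size factors, 0.00440 with no filter beyond 1 count and 0.000854 with the replicate block, where SNORA73B was 0.00662. Under the alternatives that kept all libraries, no mitochondrial gene turned sign in a comparison with Ab. The fit relative to the mitochondrial sum, which is not one of these alternatives, did turn signs. There MT-CO1 went from 0.06 to -0.23 in NR and from 0.12 to -0.20 in SP. MT-RNR2, MT-ND1, MT-ATP8 and MT-CO3 also turned from above 0 to below 0 in both, and MT-ND2 did in SP. MT-ATP8 had the fewest counts of the mRNAs and the tRNA genes other than MT-TP had 0 to 3 per library, and what part depth has in that was not tested.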

Other observations

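Of 77 tested mitoribosomal proteins, 41 rose and 21 fell in NR against Ab (median log2 fold change 0.17), and 39 rose and 21 fell in SP (median 0.16). Among all genes tested 36.4% rose and 36.4% fell in NR, and 36.4% and 36.6% did in SP. MRPS10, of the small subunit, was at 98.1, 86.7 and 92.9 CPM in NR, 99.1, 94.5 and 98.6 CPM in SP and 206, 205 and 209 CPM in Ab and fell (log2 -1.18 ± 0.05 in NR and -1.11 ± 0.05 in SP). MRPL49, of the large subunit, fell as well (-0.70 ± 0.05 and -0.77 ± 0.05), while MRPL24, also of the large subunit, was at 148, 143 and 135 CPM in NR, 145, 133 and 133 CPM in SP and 80.0, 78.5 and 78.8 CPM in Ab and rose (0.82 ± 0.05 and 0.76 ± 0.05). Of 16 translation and assembly factors, 9 rose and 5 fell in NR (median 0.25), and 8 rose and 5 fell in SP (median 0.23), beside the same shares of all genes. OXA1L, which inserts mitochondrial proteins into the inner membrane, rose by 0.56 ± 0.05 and 0.52 ± 0.05, and COA3, which acts in the assembly of complex IV with newly made MT-CO1, by 0.73 ± 0.07 and 0.87 ± 0.07. MRPL58, which frees stalled peptides, fell (log2 -0.85 ± 0.07 and -0.78 ± 0.07).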
